A study of Mus musculus with 12 samples.

Results

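The mitochondrial genome of the mouse contributed 37 of the 55376 genes listed in the count table, found by a symbol that starts with mt-. They comprise 13 protein genes, 2 ribosomal RNA genes (mt-Rnr1 for 12S and mt-Rnr2 for 16S) and 22 transfer RNA genes, and all lie on chromosome M of mm10. Reads were counted for 21 of the 37 genes, and 16 had no count in any of the 12 libraries. The 10 genes that passed the filter on low counts were the 2 ribosomal RNA genes, 7 protein genes (mt-Nd1, mt-Nd2, mt-Co1, mt-Nd4, mt-Nd5, mt-Nd6 and mt-Cytb) and 1 transfer RNA gene, mt-Tw.

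The cells were mouse bone marrow progenitors, positive for c-Kit and Sca-1 and negative for lineage markers, kept in RPMI with 20 ng/ml IL-3, 20 ng/ml IL-6 and 100 ng/ml SCF. They were transduced with the retroviral vector MSCV, selected with geneticin, and then with a pLKO.1-puro vector for an shRNA. The series title and design ask how Nizp1, a zinc finger protein listed in the table as Zkscan17, bears on cells with the fusion NUP98-NSD1, an oncogene of acute myeloid leukaemia that joins a nucleoporin to a histone H3 lysine 36 methyltransferase. There were 4 groups of 3 libraries, with replicate numbers 1 to 3 in the labels: empty MSCV with the control shRNA (called empty vector here), NUP98-NSD1 with the control shRNA (called fusion), NUP98-NSD1 with shNizp1#1 and NUP98-NSD1 with shNizp1#2. All groups thus carry an shRNA vector and went through the same cytokines. The fusion was expressed from a virus and not from its own locus, and no group had an shRNA against Nizp1 without the fusion. The labels name no animals, so each p-value speaks only of spread among these libraries, part of which may be technical.

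Libraries held between 3586538 and 6842589 counts. Zkscan17 was at 48.7 to 70.3 CPM (counts per 1000000 counts of the library) in the 6 libraries with the control shRNA and at 17.7 to 34.6 CPM in the 6 with an shRNA against Nizp1. The summed level of 9 mast cell markers was 37824 to 57555 CPM, with Cpa3 at 19385 to 29087. That of 11 stem and progenitor markers was 4012 to 5062 CPM, most of it from Kit (1992 to 3102) and Cd34 (1139 to 2068), which mast cells also express. Ly6a, the gene of Sca-1, was at 22.6 to 283 CPM, and Flt3 (0 to 3.87), Procr (0.300 to 2.69) and Slamf1 (1.12 to 8.86) were near 0, so the labelled stem and progenitor identity had little support from its more specific markers. Marker sums for other cells were 1291 to 1892 CPM for megakaryocytes, 49.2 to 3384 for monocytes, 1.32 to 1933 for neutrophils, 0 to 165 for eosinophils and 6.25 to 13.9 for erythroid cells. They were at most 0.368 CPM for B cells, 5.52 for T and NK cells (Cd3g at 0) and 4.52 for stromal and endothelial cells. In bulk RNA, a change in the number of cells of a type and a change in RNA per cell cannot be told apart.

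The mitochondrial genome is transcribed as long precursors from both strands by a dedicated polymerase, POLRMT, with the factors TFAM and TFB2M. Transfer RNAs lie between most of the other genes, and their excision frees the messenger and ribosomal RNAs, most of which then receive a short poly(A) tail. The protein genes encode core subunits of respiratory complexes I (the Nd genes), III (Cytb) and IV (the Co genes) and of the ATP synthase (Atp6 and Atp8), while all other subunits come from nuclear genes.

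Because libraries were built from RNA caught by its poly(A) tail, the 3′ ends of the messenger RNAs are shown first. In 10 of the 13 protein genes the annotated transcript ends in a complete stop codon. In mt-Co3, mt-Nd4 and mt-Cytb it ends in a single T, and in cells the added tail completes the codon. The last 30 bases of these 3 genes, and of mt-Co1 for comparison, are given 5′ to 3′ from GENCODE vM21 with the stop bases in capitals. They lie at chrM:9361-9390, chrM:11515-11544, chrM:15259-15288 and chrM:6843-6872 (mm10, plus strand).
mt-Co3: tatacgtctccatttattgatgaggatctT
mt-Nd4: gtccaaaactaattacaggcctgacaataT
mt-Cytb: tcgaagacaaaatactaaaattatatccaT
mt-Co1: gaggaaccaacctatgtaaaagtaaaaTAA

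Of the 16 genes without a count, 10 lay in 1 stretch of the genome, and the other 6 were transfer RNA genes elsewhere (mt-Tf, mt-Tv, mt-Tc, mt-Th, mt-Ts2 and mt-Tl2). The stretch chrM:6390-11042, 4653 bases long, holds 11 whole genes: mt-Co2, mt-Atp8, mt-Atp6, mt-Co3, mt-Nd3, mt-Nd4l and 5 transfer RNA genes. Together these 11 genes received 1 count over the 12 libraries, a read of mt-Co2 in replicate 1 of the fusion. Of the genes that flank them, mt-Co1, which starts before the stretch, received 409743 counts and mt-Nd4, which ends after it, 54584. A count of 0 over all 63794154 counts allows up to 0.0470 CPM assigned to a gene, a limit on assigned reads and not on the RNA.

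The same stretch has an annotated nuclear counterpart. Aligned to the GENCODE vM21 transcripts, the mitochondrial genes matched 7 pseudogenes that lie in the same order on the minus strand at chr1:24611535-24616197. Gm28661 (for mt-Co2, 681 bases aligned), Gm10925 (mt-Atp6, 678), Gm28437 (mt-Co3, 783), Gm10222 (mt-Nd4l, 294) and Gm28439 (the first 876 bases of mt-Nd4) were identical to their mitochondrial gene. Gm29216 matched the last 483 bases of mt-Co1 with 1 mismatch and Gm28438 matched 345 bases of mt-Nd3 with 1 mismatch. The first 75 bases of mt-Co2 (chrM:7013-7087), the length of 1 read, are printed as an example, since the same letters stand at chr1:24615491-24615565 on the minus strand.
mt-Co2 and Gm28661: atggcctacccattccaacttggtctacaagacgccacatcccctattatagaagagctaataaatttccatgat

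The pair of substitutions is shown because they are the only letters that differed within the aligned parts of the 7 pseudogenes on chromosome 1. Bases outside the alignments were not compared. Positions are counted from 1 at the first base of the mitochondrial gene. The substitution in mt-Co1 is A1066T (chrM:6390-6449 against chr1:24616129-24616188, minus strand) and that in mt-Nd3 is T3C (chrM:9459-9518 against chr1:24613060-24613119, minus strand), with the mitochondrial base first and both bases in capitals below.
mt-Co1: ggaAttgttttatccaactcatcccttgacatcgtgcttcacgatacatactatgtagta
Gm29216: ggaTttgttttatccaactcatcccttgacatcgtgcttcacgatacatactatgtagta
mt-Nd3: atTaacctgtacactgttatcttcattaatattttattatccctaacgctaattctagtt
Gm28438: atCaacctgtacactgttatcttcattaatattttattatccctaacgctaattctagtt

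Counted over every window of 75 bases, 99.5% of the windows of mt-Co2 and of mt-Atp6 were found letter for letter in a nuclear transcript, as were 99.9% for mt-Co3, 97.8% for mt-Nd3 and 98.7% for mt-Nd4l. The share was 61.5% for mt-Nd4, 39.8% for mt-Co1, 5.71% for mt-Nd2 and 1.66% for mt-Nd5. For mt-Nd1, mt-Nd6, mt-Cytb, mt-Rnr1 and mt-Rnr2 it was 0. The 5 genes with nearly all windows shared had 1 to 6 unshared windows and at most 1 count each. The other protein and ribosomal RNA genes with counts had at least 445 unshared windows. Transfer RNA genes, no longer than a window, are left out here. Unlike the 5 genes, mt-Atp8, an ATP synthase subunit of 204 bases, had no count although none of its windows was found in an annotated nuclear transcript. It lies after mt-Co2 and overlaps the start of mt-Atp6, and 43 of its bases lie in a copy of at least 99% identity. The gap between Gm28661 and Gm10925 is as long as that between their mitochondrial counterparts, and the nuclear sequence in this gap was not analysed here.

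Few reads were counted for the pseudogenes themselves. The 7 copies on chromosome 1 held 158 counts in all, of which Gm28438 had 86 (0 to 14 per library) and Gm29216 61 (1 to 10). Among 22 annotated copies of any identity above 85%, another pair exceeded 9 counts in a library. Gm13340, a copy of mt-Co1 at chr2:22588103-22589647 with 97.6% identity, had 5 to 25 counts per library, and Gm13341, a copy of mt-Co2 at chr2:22587291-22587962 with 95.9% identity, had 4 to 22. How reads with more than 1 placement were treated is not given in the sources used here, and its part in the zeros was not tested.

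**Figure D1:**
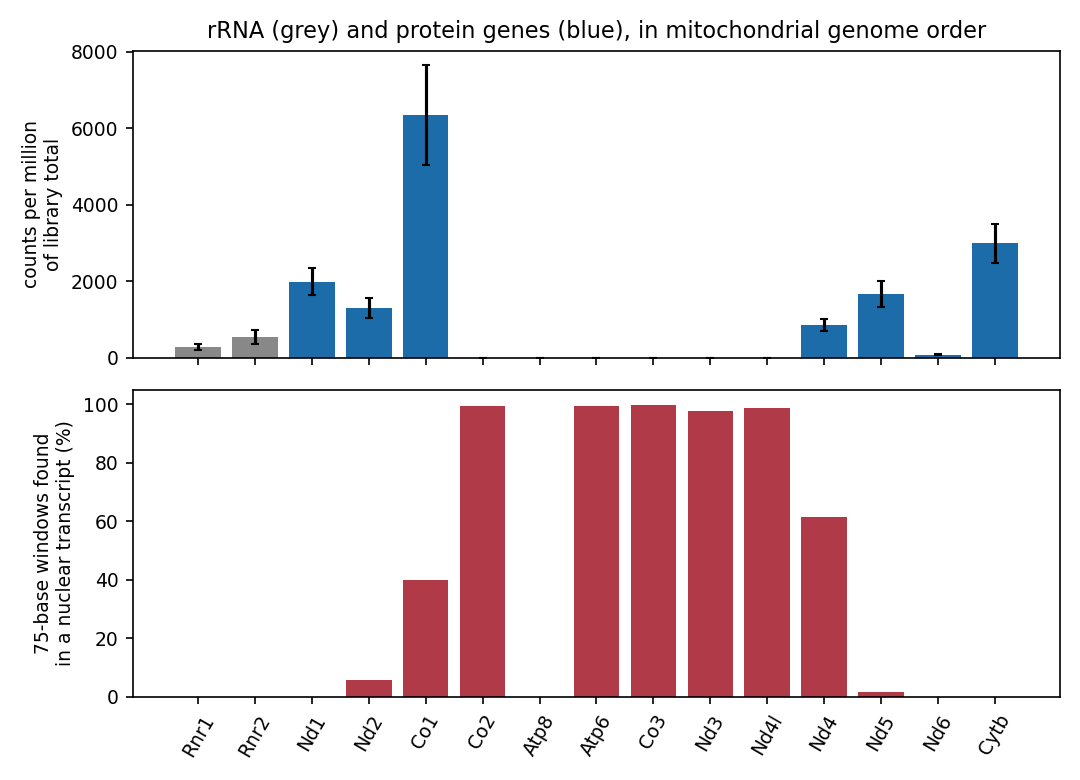
The upper bars give the mean CPM on library totals over the 12 libraries (error bars, SD) for the 15 ribosomal RNA and protein genes in genome order, and the lower bars the percent of each gene's 75-base windows that occur in an annotated nuclear transcript. The 6 protein genes from Co2 to Nd4l are at or next to 0, 5 of them have more than 97% of their windows shared, and Atp8 has none.

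Of the 1035554 mitochondrial counts, 94.8% fell on protein genes, 5.10% on the ribosomal RNA genes and 0.0639% on transfer RNA genes. Transfer RNA genes are 59 to 75 bases long, no longer than a read of 75 nt, and mature transfer RNAs carry no poly(A) tail. Of the 22, 11 had no count, and mt-Tw (tryptophan) alone passed the filter, with 430 counts. The next were mt-Tt with 57 counts, mt-Tp with 52, mt-Ta with 49 and mt-Ti with 35.

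Levels were uneven among the protein genes. Per kilobase of gene, mean CPM (scaled by TMM, edgeR's correction for composition) was 4111 for mt-Co1, the catalytic subunit of cytochrome c oxidase, 2611 for mt-Cytb of complex III and 2084 for mt-Nd1. It was 1249 for mt-Nd2, 915 for mt-Nd5 and 617 for mt-Nd4. The lowest was mt-Nd6, the single protein gene of the minus strand, at 155. The genes differ in their shared windows and may differ in capture by their poly(A) tails. The part of either in this order was not tested. Per 1000 windows that occur in no nuclear transcript, mt-Nd4 was at 1692 CPM, mt-Nd2 at 1426, mt-Nd5 at 970 and mt-Co1 at 7178. This scale takes all counts to come from unshared windows, which is not known. The ribosomal RNAs, which form the mitochondrial ribosome, were at 345 (mt-Rnr2) and 297 (mt-Rnr1) CPM per kilobase, in libraries made to catch poly(A) RNA.

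Within the mitochondrial counts of a library, mt-Co1 took 36.7% to 43.5% and mt-Cytb 16.5% to 21.8%. The share was 10.0% to 14.4% for mt-Nd1, 9.19% to 11.4% for mt-Nd5, 6.79% to 9.19% for mt-Nd2 and 5.01% to 5.63% for mt-Nd4. This order of the 6 genes was the same in the mean of every group. The mt-Nd5 share was 9.52%, 9.88% and 9.19% with the empty vector and 10.5%, 11.0% and 9.94% with the fusion, which do not overlap, although the gap from 9.88% to 9.94% is small. The mt-Cytb share went the other way at each replicate number, from 18.1%, 20.9% and 21.8% to 17.7%, 17.1% and 19.6%, with overlap. That of mt-Nd6 was also lower with the fusion, from 0.504%, 0.584% and 0.614% to 0.503%, 0.489% and 0.463%. The mt-Nd6 shares do not overlap, although the gap from 0.503% to 0.504% is very small.

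The first comparison asks how mitochondrial transcripts differ when the progenitors carry NUP98-NSD1. Mitochondrial genes took 1.45%, 1.22% and 1.06% of all counts in the empty-vector libraries (replicate numbers 1, 2 and 3) and 1.59%, 1.63% and 1.89% in the fusion libraries. Every fusion library was above every empty-vector library. The means were 1.25% ± 0.196 (SD, n = 3) and 1.70% ± 0.160, a ratio of 1.37. The difference within a replicate number was 0.137 percentage points for number 1, 0.411 for number 2 and 0.826 for number 3, so it was uneven, and without number 3 the means differed by 0.274 points in place of 0.458. The 95% Wilson interval of a single library's share was at most 0.0287 percentage points wide, which covers counting error alone.

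The libraries with an shRNA against Nizp1, which also carry the fusion, were at 1.40%, 1.97% and 1.91% with shNizp1#1 and at 1.61%, 1.78% and 1.75% with shNizp1#2. Their means of 1.76% ± 0.313 and 1.71% ± 0.0904 (SD, n = 3 each) lay within the range of the fusion libraries. The differences from the fusion were 0.0553 and 0.00968 points, and that between the shRNAs, shNizp1#2 minus shNizp1#1, was -0.0456 points. Each of these took both signs over the replicate numbers. Replicate 1 of shNizp1#1, at 1.40%, was the lowest of the 9 libraries with the fusion and lay below the highest empty-vector library, at 1.45%. It had 4247364 counts, within the range of the others.

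**Figure D2:**
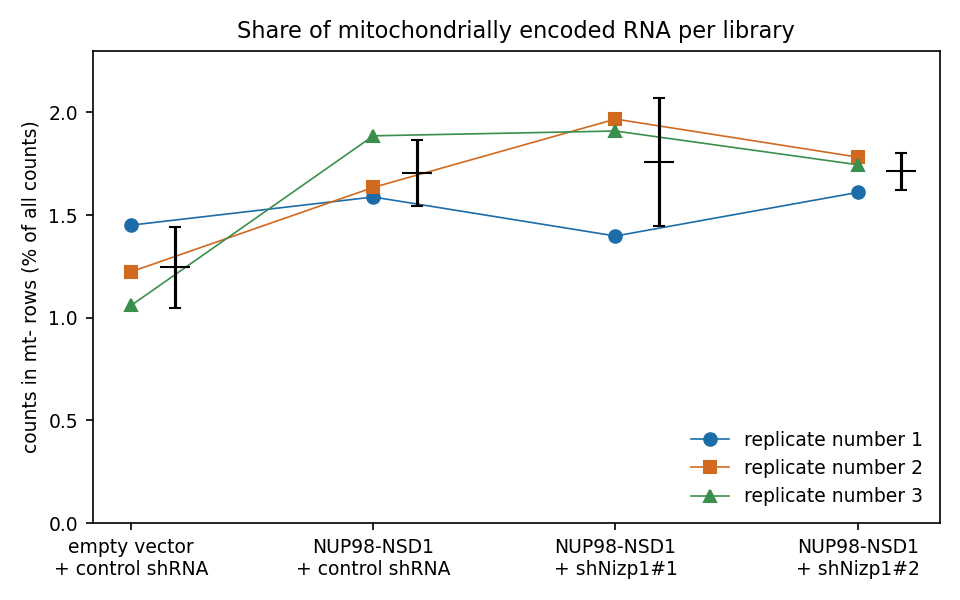
Each symbol is the percent of a library's counts that fell on mitochondrial genes, with thin lines joining libraries of the same replicate number and black bars giving the group mean and SD (n = 3). The 3 empty-vector libraries lie at 1.06% to 1.45% and the 3 fusion libraries at 1.59% to 1.89%, and the groups with an shRNA against Nizp1 overlap the fusion group.

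Among the complex I genes, mt-Nd5, a core subunit of its membrane arm, was at 1457, 1233 and 946 CPM in the empty-vector libraries and at 1715, 1814 and 1817 in the fusion libraries. mt-Nd2, another membrane-arm subunit, was at 1263, 952 and 743 CPM against 1390, 1363 and 1536. mt-Nd4 was at 785, 691 and 522 CPM against 893, 933 and 915. In these 3 genes no fusion library was as low as any empty-vector library, and the lowest empty-vector value was that of replicate number 3. mt-Nd1 was at 2131, 1447 and 1239 CPM against 2291, 1970 and 2462, with overlap between the groups. mt-Nd6, read from the other strand, was at 77.1, 72.9 and 63.2 CPM against 82.3, 81.1 and 84.6, a narrow gap without overlap.

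The same held for the genes of complexes IV and III. mt-Co1 was at 5756, 4755 and 4176 CPM in the empty-vector libraries and at 6053, 6578 and 7233 in the fusion libraries. mt-Cytb was at 2768, 2606 and 2246 CPM against 2896, 2825 and 3580. Neither overlapped, and all 7 protein genes were higher with the fusion at 3 of 3 replicate numbers. The ribosomal RNAs and mt-Tw were higher at 2 of 3. mt-Rnr2 was at 713, 483 and 207 CPM against 703, 641 and 394, and mt-Rnr1 at 348, 223 and 141 against 340, 344 and 244. For both, replicate number 3 was the lowest in each group, and at replicate number 1 the empty vector was slightly above the fusion. In all, 6 of the 10 genes did not overlap, and over all 11994 genes tested 3.68% had every fusion library above every empty-vector library. Mitochondrial transcripts come from common precursors and share the library total, so these 6 are not independent of each other.

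No mitochondrial gene was called by edgeR in this comparison (adjusted p under 0.05 over all 11994 genes, of which 0.00834% were called). The largest log2 fold changes were 0.56 for mt-Nd5 (SE 0.17), 0.54 for mt-Nd2 (SE 0.18) and 0.48 for mt-Nd1 (SE 0.19), with an adjusted p of 1.00 for each. All 10 log2 fold changes were above 0, with a median of 0.41. Over all genes the median was 0.01 and 51.3% were above 0. An unadjusted p under 0.05 was found for 5 of the 10 genes and for 2.67% of all genes. The libraries of a replicate number vary together, so a second fit, blocked on replicate number, stands beside it. There the median was 0.43, the lowest adjusted p was 0.235 (mt-Nd5, log2 fold change 0.56, SE 0.15), 6 genes had an unadjusted p under 0.05 and none was called, against 0.275% of all genes.

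This count depended on 1 library and on the method. Without replicate 1 of the empty vector, the library nearest to the fusion group, 7 genes were called with the block (mt-Rnr1, mt-Rnr2, mt-Nd1, mt-Nd2, mt-Co1, mt-Nd4 and mt-Nd5) and the median was 0.70. DESeq2 with the block called mt-Nd2 and mt-Nd5. Without replicate number 3 the median was 0.27 and none was called, and mt-Tw was then lower with the fusion.

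**Figure D3:**
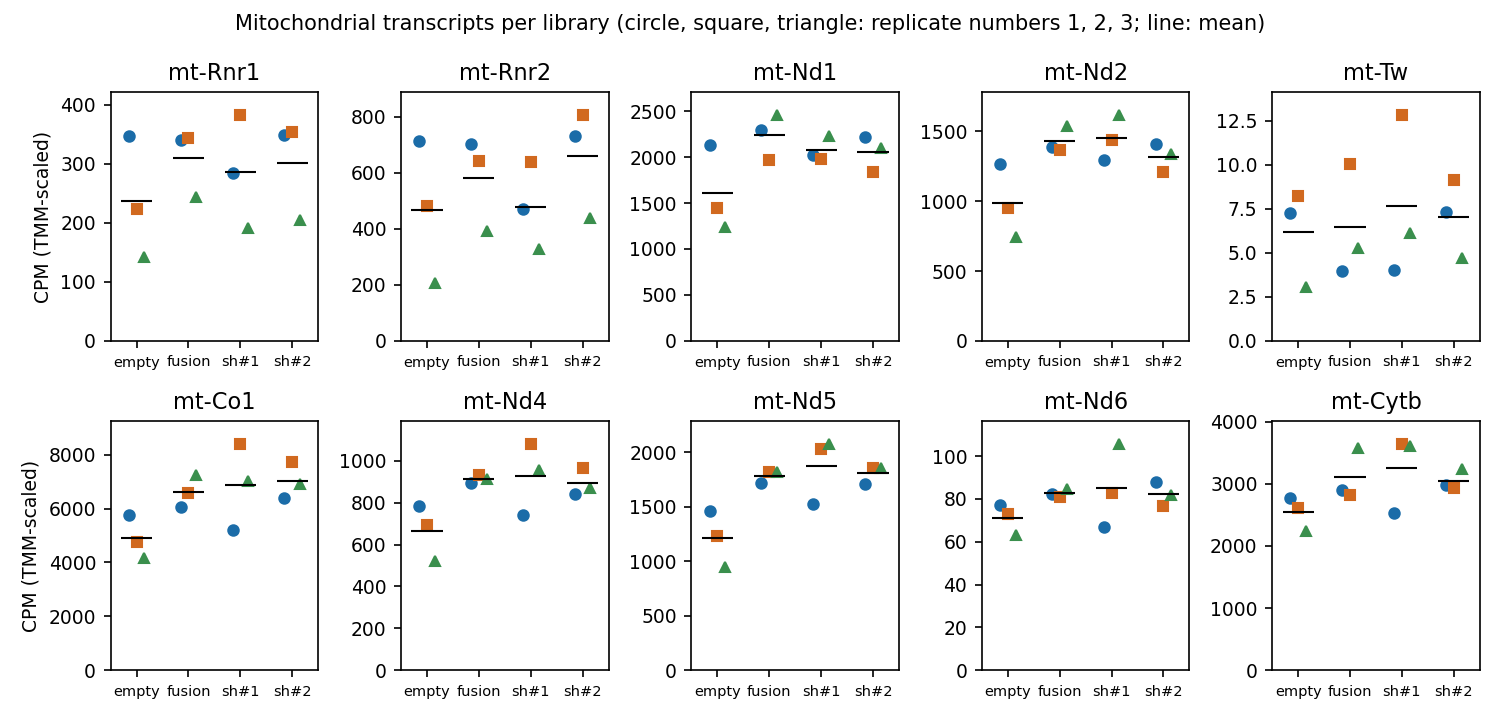
Each panel gives 1 of the 10 tested mitochondrial genes in CPM (TMM-scaled, axes from 0), with a symbol per library for replicate numbers 1 (circle), 2 (square) and 3 (triangle) and a line at the group mean. The fusion group lies above the empty vector without overlap in Nd2, Co1, Nd4, Nd5, Nd6 and Cytb, and the triangles are the lowest of each group in Rnr1 and Rnr2.

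A comparison added after the data were seen took the 9 libraries with the fusion together against the 3 with the empty vector. mt-Nd5 was the single one of the 10 genes with every fusion library above every empty-vector library, as were 0.8% of all genes. Its values were 1521, 2031 and 2075 CPM with shNizp1#1 and 1711, 1852 and 1852 with shNizp1#2, against at most 1457 with the empty vector. With the block, edgeR called mt-Nd5 (log2 fold change 0.59, SE 0.13, adjusted p = 0.0436), higher with the fusion at 3 of 3 replicate numbers, and 1.6% of all genes. Without the block no mitochondrial gene was called (lowest adjusted p 0.702), and 0.00834% of all genes were. The blocked call was lost on leaving out any 1 of 10 of the 12 libraries. The exceptions were replicate 1 of the empty vector, without which 7 genes were called, and replicate 1 of shNizp1#1, without which 4 were (mt-Nd2, mt-Co1, mt-Nd4 and mt-Nd5). It was also lost without replicate number 3.

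The next comparisons ask how the transcripts differ when Nizp1 is lowered in fusion cells, and here the groups overlapped in each of the genes named. mt-Co1 was at 5184, 8399 and 7026 CPM with shNizp1#1 and at 6407, 7730 and 6928 with shNizp1#2, around the 6053 to 7233 of the fusion libraries. mt-Cytb was at 2526, 3642 and 3600 CPM and at 2977, 2935 and 3244. With shNizp1#1 replicate 1 was the lowest and with shNizp1#2 the spread was smaller. Over the 10 genes, blocked log2 fold changes ran from -0.27 (mt-Rnr2) to 0.24 (mt-Tw) with shNizp1#1, median 0.03, and from -0.13 (mt-Nd1) to 0.18 (mt-Rnr2) with shNizp1#2, median -0.01.

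edgeR called none of them in either comparison, with the block or without it, and none had an unadjusted p under 0.05. Over all genes 1.63% were called with shNizp1#1 and 0.217% with shNizp1#2 in the blocked fit, and 0% and 0.00834% without the block. The 95% intervals of the blocked log2 fold changes of the 7 protein genes lay between -0.41 and 0.40 with shNizp1#1 and between -0.47 and 0.43 with shNizp1#2. Differences of that size are therefore not resolved by 3 libraries a group.

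Between shNizp1#2 and shNizp1#1, the protein genes had blocked log2 fold changes from -0.15 (mt-Nd2) to 0.04 (mt-Co1). mt-Rnr2 was at 469, 639 and 327 CPM with shNizp1#1 and at 732, 807 and 438 with shNizp1#2, higher with shNizp1#2 at 3 of 3 replicate numbers. Its log2 fold change was 0.45 (SE 0.21) and it was not called (adjusted p = 0.350 in edgeR with the block). No mitochondrial gene was called in this comparison, with 2.37% of all genes called with the block and 0.00834% without it. mt-Rnr2 was called when the fit held these 2 groups only, with the block (adjusted p = 6.79e-04), or with no filter on low counts, with the block (adjusted p = 0.00111). Over all alternatives its adjusted p ran from 6.79e-04 to 1. The comparisons with the fusion share its 3 libraries and are not independent.

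**Figure D4:**
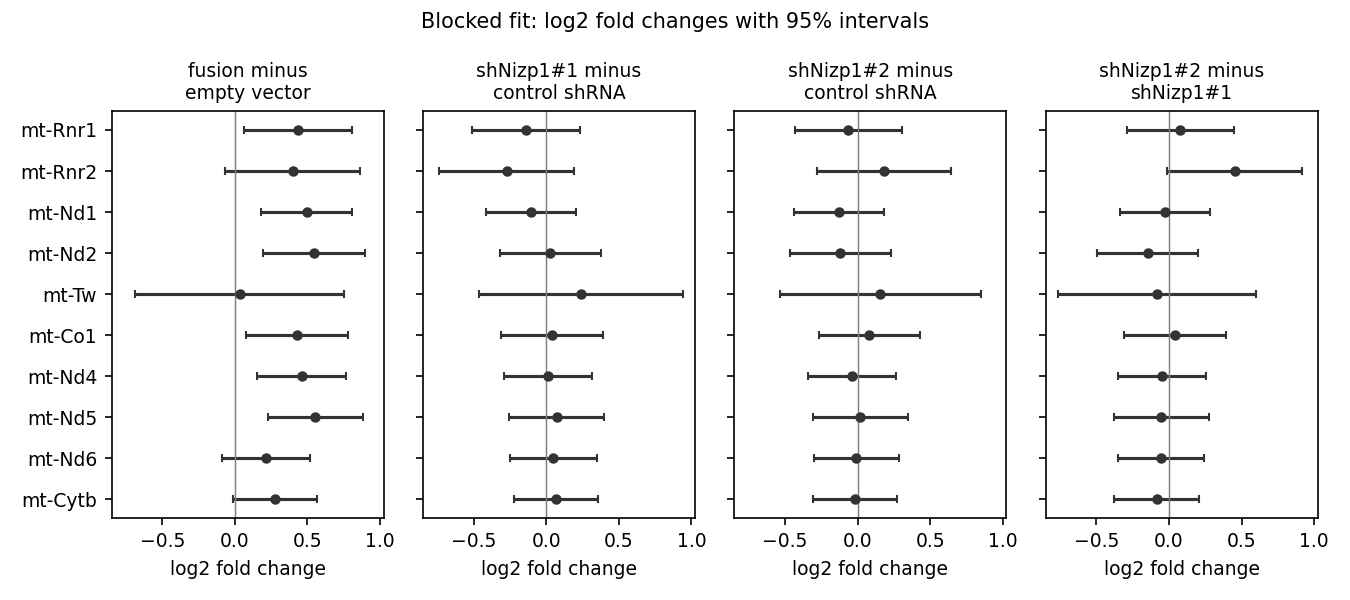
Points are log2 fold changes from the fit blocked on replicate number and bars their 95% intervals, for the 10 tested genes in the 4 comparisons. With the fusion all 10 points lie above 0 and none was called, while with either shRNA the intervals of all 10 genes include 0.

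The ribosomal RNAs differed by replicate number in all 4 groups. Per 100 counts of mitochondrial protein genes, the ribosomal RNA genes had 7.45, 6.0 and 3.51 counts in the empty-vector libraries (replicate numbers 1, 2 and 3) and 6.81, 6.33 and 3.61 with the fusion. They had 5.64, 5.48 and 2.94 with shNizp1#1 and 6.90, 6.99 and 3.91 with shNizp1#2. All 4 libraries of replicate number 3 were thus below the other 8. shNizp1#1 was the lowest group at every replicate number.

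With group in the model, edgeR called 3 of the 10 genes for replicate number, mt-Rnr1 (adjusted p = 0.00222), mt-Rnr2 (adjusted p = 0.00322) and mt-Tw (adjusted p = 0.0129). Over all genes 53.5% were called, so a call is not particular to these 3, and the 7 protein genes were not called (adjusted p from 0.163 to 0.823). Number 3 was lower than number 1 by a log2 fold change of -0.98 for mt-Rnr2 (SE 0.18) and of -0.79 for mt-Rnr1 (SE 0.15). Against number 2 the values were -0.93 (SE 0.18) and -0.74 (SE 0.15). mt-Tw followed another course, with 8.21 to 12.8 CPM in number 2, above all 8 libraries of numbers 1 and 3, which had 3.04 to 7.34. Its call was lost without replicate 2 of the fusion (adjusted p = 0.0539) or replicate 2 of shNizp1#1 (adjusted p = 0.0646). Without replicate 1 of the empty vector 5 genes were called, mt-Co1 and mt-Nd4 in addition.

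Other measures also differed by replicate number, and not all of them set number 3 apart. The summed level of the 8 neutrophil markers was 1.32 to 8.41 CPM in its libraries, against 207 to 488 in number 1 and 811 to 1933 in number 2. The 9 mast cell markers summed to 37824 to 44387 CPM, against 44531 to 57555 in the other libraries. The 6 monocyte markers summed to 49.2 to 1160 against 729 to 3384, with overlap. Malat1 and Neat1 are RNAs kept in the nucleus. Scaled by TMM, unlike the marker sums, they summed to 730, 1127, 1122 and 1127 CPM in number 3 (empty vector, fusion, shNizp1#1 and shNizp1#2). They summed to 1741, 1273, 934 and 1604 in number 1 and to 1485, 1893, 1783 and 2814 in number 2. With shNizp1#1, number 3 was thus above number 1. The part of these differences in the low ribosomal RNA was not tested.

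**Figure D5:**
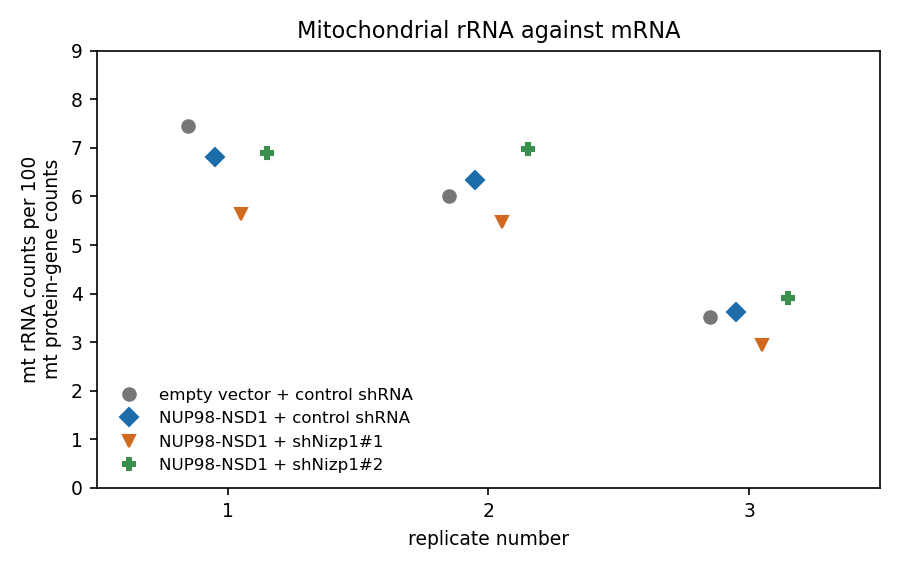
Counts of mt-Rnr1 and mt-Rnr2 together per 100 counts of mitochondrial protein genes, by replicate number, with a symbol per group. The 4 libraries of replicate number 3 lie between 2.94 and 3.91 and the other 8 between 5.48 and 7.45.

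Shares of single messenger RNAs are given by replicate number as a description, since none of the 7 protein genes was called for it. mt-Nd1 took 13.2% to 14.4% of the mitochondrial counts in number 1, 10.0% to 11.9% in number 2 and 12.0% to 13.5% in number 3. The ranges of numbers 1 and 2 do not overlap, and in the fit against replicate number mt-Nd1 was not called (2 minus 1, log2 fold change -0.28, SE 0.12, adjusted p = 0.112). mt-Cytb took 17.7% to 18.1% in number 1, 16.5% to 20.9% in number 2 and 19.0% to 21.8% in number 3, and number 2 overlapped both others. These are shares of a total that includes the ribosomal RNAs, which were lower in number 3.

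Nuclear genes of the same pathways were read from the same fits. Of 76 nuclear subunits of complexes I to V, all tested, none was called in the 4 comparisons between groups. With the fusion their median blocked log2 fold change was -0.06 and 16 of 76 were above 0. So were 49.8% of all genes, and 10 of 10 of the mitochondrial genes, which are not independent of each other. The medians of the 76 were 0.00 with shNizp1#1, and -0.13 both with shNizp1#2 and between the shRNAs. There 39, 6 and 11 of the 76 were above 0, beside 49.3%, 49.6% and 49.7% of all genes. The summed level of the 76 (TMM-scaled) was 9185, 9169 and 10585 CPM with the empty vector and 9521, 7897 and 10459 with the fusion. Replicate number 3 was the highest in both. By replicate number 64 of the 76 were called, beside 53.5% of all genes.

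Factors that copy and transcribe mitochondrial DNA (18 tested, Polrmt, Tfam and Tfb2m among them) had no call in the comparisons between groups and a median blocked log2 fold change of 0.01 with the fusion. Their medians were 0.11 with shNizp1#1 (14 of 18 above 0), -0.10 with shNizp1#2 (5 of 18) and -0.21 between the shRNAs (2 of 18). The medians of all genes were at 0.00 there, and 49.3% to 49.7% of all genes were above 0. Of 28 genes of mitochondrial RNA processing and stability, 1 was called with the block, near the share of all genes called with shNizp1#1 (1.63%) and between the shRNAs (2.37%). Nsun3, which methylates the wobble base of the mitochondrial methionine transfer RNA, was at 37.2, 27.4 and 34.7 CPM with the fusion and at 21.9, 17.3 and 24.2 with shNizp1#1. It was lower with shNizp1#1 without overlap (log2 fold change -0.64, SE 0.13, adjusted p = 0.0212). With shNizp1#2 it was at 38.5, 26.9 and 34.2 CPM, higher than with shNizp1#1 (0.64, SE 0.12, adjusted p = 0.0148).

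Of 77 mitochondrial ribosome proteins, Mrpl11 fell with shNizp1#1, from 28.5, 28.1 and 37.5 CPM to 20.5, 15.9 and 21.5 (log2 fold change -0.70, SE 0.15, adjusted p = 0.0327 in edgeR with the block). With shNizp1#2 Mrpl11 was at 23.8, 22.4 and 35.1 CPM, which overlaps the fusion. Mrps21 (-0.47, adjusted p = 0.0450) and Mrps26 (-0.38, adjusted p = 0.0408) were lower in the 9 fusion libraries together than with the empty vector, in the added comparison. The other 74 of the 77 had no call between groups. In the blocked fit 1.63% of all genes were called with shNizp1#1 and 1.6% in the added comparison. Calls are thus not particular to this list.

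Among 8 regulators of mitochondrial biogenesis, Esrra, a nuclear receptor that drives respiratory genes, was at 53.5, 73.1 and 65.4 CPM with shNizp1#1 and at 39.3, 40.8 and 54.3 with shNizp1#2. It was lower with shNizp1#2 (log2 fold change -0.51, SE 0.12, adjusted p = 0.0330 in edgeR with the block), with overlap across replicate numbers. None of 11 mitochondrial stress response genes was called. Of 75 proteins of the cytosolic ribosome, Rpl39 was lower with shNizp1#1 than with the fusion (-0.40) and than with shNizp1#2 (0.39 for shNizp1#2 minus shNizp1#1), and Rps6 was lower with shNizp1#2 than with shNizp1#1 (-0.44). Over all genes, 2.37% were called between the shRNAs and 1.63% with shNizp1#1 in the blocked fit, so a call is not particular to these lists. Without the block none of the genes of these lists was called. Each blocked call between 2 groups was lost on leaving out at least 5 of the 6 libraries in turn, and those of Mrps21 and Mrps26 on leaving out 10 and 9 of the 12.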

How the data were processed

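The deposited file holds whole-number read counts per gene, as the authors counted them. Per the labels' protocols, 1 µg of total RNA went into the TruSeq stranded mRNA protocol, which selects poly(A) RNA, and gave 75 nt single-end reads. Per the submitters' processing notes, the tools were Trimmomatic 0.32, STAR 2.5.3a and featureCounts, with mm10. The featureCounts version, its strand setting and its treatment of reads with several placements: not given in the sources used here, so values of genes with copies or overlaps are uncertain.

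edgeR 4.0.16 (R 4.3.3; quasi-likelihood test, robust, 1 mean per group, 12 libraries) was fitted to the 11994 genes left by its filter on low counts, with TMM scaling and Benjamini-Hochberg adjustment over all of them, and checked on simulated data. Same-numbered libraries had correlated residuals (18 pairs, r from 0.205 to 0.870, other pairs median -0.18), and 12 of 12 libraries correlated best with their own number, so the block pairs them. Alternatives were RLE, upper-quartile, total and nuclear-only scaling, no filter, DESeq2 1.42.0, limma-voom 3.58.1, only the groups compared, and each library left out. The mitochondrial genes and all lists were chosen with earlier results of these data known. For that reason no p-value is given for the mitochondrial share, a sum over them. Every mitochondrial gene is accounted for, and up to 4 called members of each list are named, except for an item that is not reported here. Copies were found with BLAST 2.17.0 by aligning mitochondrial transcripts to GENCODE vM21 transcripts (at least 100 bases and 85% identity), since no genome sequence was used here. Wilson intervals and floors cover counting error only, while the intervals of log2 fold changes come from the edgeR fit and include the spread among libraries.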

Additional observations from a re-analysis of the deposited data

How the results depend on the processing

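Without the block, no mitochondrial gene was called in the 4 comparisons between groups under any scaling, filter, method or library left out. With the replicate block, 7 were called with the fusion with no low-count filter and 2 with DESeq2, and leaving out 1 library gave 0 to 7. Between the shRNAs 1 was called with no filter and 1 with only the groups compared, both with the block. With all 9 fusion libraries against the empty vector, the block gave 1 call, as did its RLE, upper-quartile, library-total, nuclear-row and only-groups forms and DESeq2 without it. It gave 8 with no filter, 5 with DESeq2 and 2 with limma-voom, and 0 to 7 with a library left out. For replicate number the calls ranged from 2 to 5, and the pathway lists had 8 calls with the block.

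With 1 library left out, the share difference ran from -0.0493 to 0.235 points for shNizp1#1, from -0.0477 to 0.101 for shNizp1#2 and from -0.226 to 0.0589 between the shRNAs, and from 0.365 to 0.561 for the fusion. In the same way the log2 fold change of mt-Rnr2 ran from -0.0460 to 0.748 with the fusion and from -0.0295 to 0.408 with shNizp1#2. That of mt-Tw ran from -0.41 to 0.41 with the fusion, from -0.33 to 0.71 with shNizp1#1 and from -0.14 to 0.54 for all fusion libraries. Without replicate number 3, mt-Tw was at -0.12, and at -0.23 with the block. Of 880 gene values under alternatives, 745 kept direction and call, 120 became called and 15 reversed. No call could be lost, since none of these genes was called in the fit without the block. The nuclear genes among them were those called with the block, so part of the 120 was set by that choice. The causes were not tested. A gene at 0 counts has a floor of 3 counts, 0.438 to 0.836 CPM in a library. mt-Tw rests on 14 to 59 counts a library.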
